A study of Homo sapiens with 20 samples.

Results

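Epithelial and mesenchymal cell states are told apart by a small group of genes, and 10 of them were read here by gene symbol out of the 36076 genes in the expression table. The 3 epithelial genes were CDH1, EPCAM and ESRP1, and the 7 mesenchymal genes were CDH2, FN1, ZEB1, ZEB2, SNAI1, SNAI2 and TWIST1. Each was measured in human lung cancer cell lines grown with PBS (Mock) or with decitabine (DAC) at 100 nM for 72 hours and then kept in drug-free medium for 3 days. mRNA-seq covered 6 lines (PC9, A549, H1792, H1299, CL1-0 and CL1-5) with 1 library per line and treatment, 12 in all, and Omni-ATAC-seq, an assay of open chromatin, covered 4 of these labels (A549, H1299, CL1-5 and PC9) with 8 libraries. CL1-5 is a subline that was selected from CL1-0 for invasiveness, so these lines share an origin. No line had a repeat library, and the replicates of a treatment were therefore the different lines.

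In epithelial cells E-cadherin, the product of CDH1, holds neighbouring cells together, whereas mesenchymal cells carry N-cadherin (CDH2) and lay down fibronectin (FN1). The zinc finger factors ZEB1, ZEB2, SNAI1 (Snail) and SNAI2 (Slug) bind E-box sequences and repress CDH1 and other epithelial genes, and TWIST1 is a helix-loop-helix factor that acts in the same program. ZEB1 and ZEB2 are in turn repressed by the miR-200 family of microRNAs, which pair with their transcripts through the seed at bases 2 to 8. DAC is a cytosine analog that traps DNA methyltransferases, so that methylation at CpG sites is lost as cells divide. Several epithelial genes, CDH1 among them, are known to be silenced by promoter methylation in carcinoma cells.

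The miR-200 family was taken up after values had been seen, and its mature sequences (RefSeq, GRCh38.p14) are shown because they carry the best known link between the epithelial state and ZEB1. The seed is in capitals. The following 3 share the seed AAUACUG.
hsa-miR-200b-3p: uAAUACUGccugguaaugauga
hsa-miR-200c-3p: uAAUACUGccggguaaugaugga
hsa-miR-429: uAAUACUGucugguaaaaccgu
The other 2 share the seed AACACUG.
hsa-miR-200a-3p: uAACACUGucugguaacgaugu
hsa-miR-141-3p: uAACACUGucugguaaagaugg

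The DNA words that match these seeds, CAGTATT and CAGTGTT on the transcript strand, were counted in the 3′ UTR of 1 canonical transcript per gene. ZEB1 held 9 of them in 2543 bases (6 and 3), and ZEB2 held 9 in 5373 bases (5 and 4). Of the 1210 other 3′ UTRs within 10% of the length of that of ZEB1, 45.5% held at least 1 match and 0% held as many as 9. For ZEB2, 71.0% of 565 held at least 1 and 0% held as many as 9. FN1 and ESRP1 had 2 matches each and SNAI2 had 1, while CDH1, EPCAM, CDH2, SNAI1 and TWIST1 had 0. A match describes the letters only.

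Promoter sequences were at hand for CDH2, FN1, ZEB1 and ZEB2 of the 10 genes. They are shown upstream of the start, with CpG sites in capitals, because CpG sites are where DAC acts. ZEB2 is not shown since its window lay in an annotated UTR, and 5 UTR bases were cut from that of FN1. For genes with several starts in RefSeq the window of the most upstream of these is given, on the strand of the gene and with its place in GRCh37, found by an exact match.
ZEB1, chr10:31607096-31607345, plus strand: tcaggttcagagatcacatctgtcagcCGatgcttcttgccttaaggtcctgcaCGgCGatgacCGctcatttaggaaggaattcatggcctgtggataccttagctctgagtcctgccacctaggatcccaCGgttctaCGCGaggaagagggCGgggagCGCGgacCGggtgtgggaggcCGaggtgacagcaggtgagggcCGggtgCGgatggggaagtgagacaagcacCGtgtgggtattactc
CDH2, chr18:25757095-25757344, minus strand: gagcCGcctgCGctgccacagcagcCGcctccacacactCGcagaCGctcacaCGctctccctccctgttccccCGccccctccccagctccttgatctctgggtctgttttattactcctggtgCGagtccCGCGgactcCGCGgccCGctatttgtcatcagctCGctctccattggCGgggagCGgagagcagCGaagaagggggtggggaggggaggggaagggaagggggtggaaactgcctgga
FN1, chr2:216300797-216301041, minus strand: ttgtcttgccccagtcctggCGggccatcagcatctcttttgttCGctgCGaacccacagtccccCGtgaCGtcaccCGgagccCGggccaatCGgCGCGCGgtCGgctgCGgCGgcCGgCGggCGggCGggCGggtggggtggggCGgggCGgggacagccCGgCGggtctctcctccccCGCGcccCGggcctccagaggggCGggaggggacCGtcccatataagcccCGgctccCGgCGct
The FN1 window held 31 CpG sites in 245 bases, more than 89.1% of 35116 promoter windows of 250 bases. The windows of CDH2 and ZEB1 held 17 and 15, more than 61.0% and 57.1% of them, and the median was 11. The E-box CAGGTG or its reverse complement CACCTG was found 1 time in the window of ZEB1 and 0 times in those of CDH2 and FN1, and 17.5% of all windows held at least 1. These windows overlapped an ATAC peak in all 8 libraries for ZEB1 and FN1 and in 7 of 8 for CDH2.

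The mRNA libraries held 22234485 to 25303899 reads on genes, except for those of H1299 with 52634234 and 59735913, in which 81.9% to 85.5% of low read numbers were even against 39.2% to 41.5% elsewhere. Reads of H1299 were therefore divided by 2 for counting intervals. Epithelial keratins (KRT7, KRT8, KRT18 and KRT19) summed to 0.272 FPKM in Mock and 2.11 after DAC in CL1-0, against at least 112 in every other library, so that these defining markers of epithelial cells were near absent in CL1-0. Markers of fibroblasts (COL1A1, LUM, DCN, PDGFRA and PDGFRB) summed to 102 and 142 FPKM in H1792 and to at most 3.90 elsewhere. All 4 alveolar markers (SFTPB, SFTPC, NAPSA and NKX2-1) were under 1 FPKM in every library, and so was CD68 of leukocytes. PTPRC and CD3E were under 0.1 FPKM throughout, and LYZ lay between 0.472 and 1.33, with a sum over these 4 genes of 0.546 to 1.43. These are bulk samples, in which fewer cells of a state and less RNA per cell cannot be told apart.

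For the 8 genes with reads in every Mock library the ratio of the highest to the lowest line in Mock was larger than any ratio between DAC and Mock. ESRP1 and SNAI2 were at 0 in 1 Mock library each. The genes did not split the lines in the same way. Levels are in FPKM, reads scaled by gene length and library depth, and so may be compared between genes. PC9 alone had high levels of all 3 epithelial genes with low ZEB1 and ZEB2. A549 combined CDH1 with ZEB1, FN1 and SNAI1. CL1-0, CL1-5 and H1299 had CDH1 and EPCAM under 1 FPKM, and H1792 had the highest CDH2, FN1, ZEB1, ZEB2 and SNAI1 of the 6 lines.

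**Figure D1:**
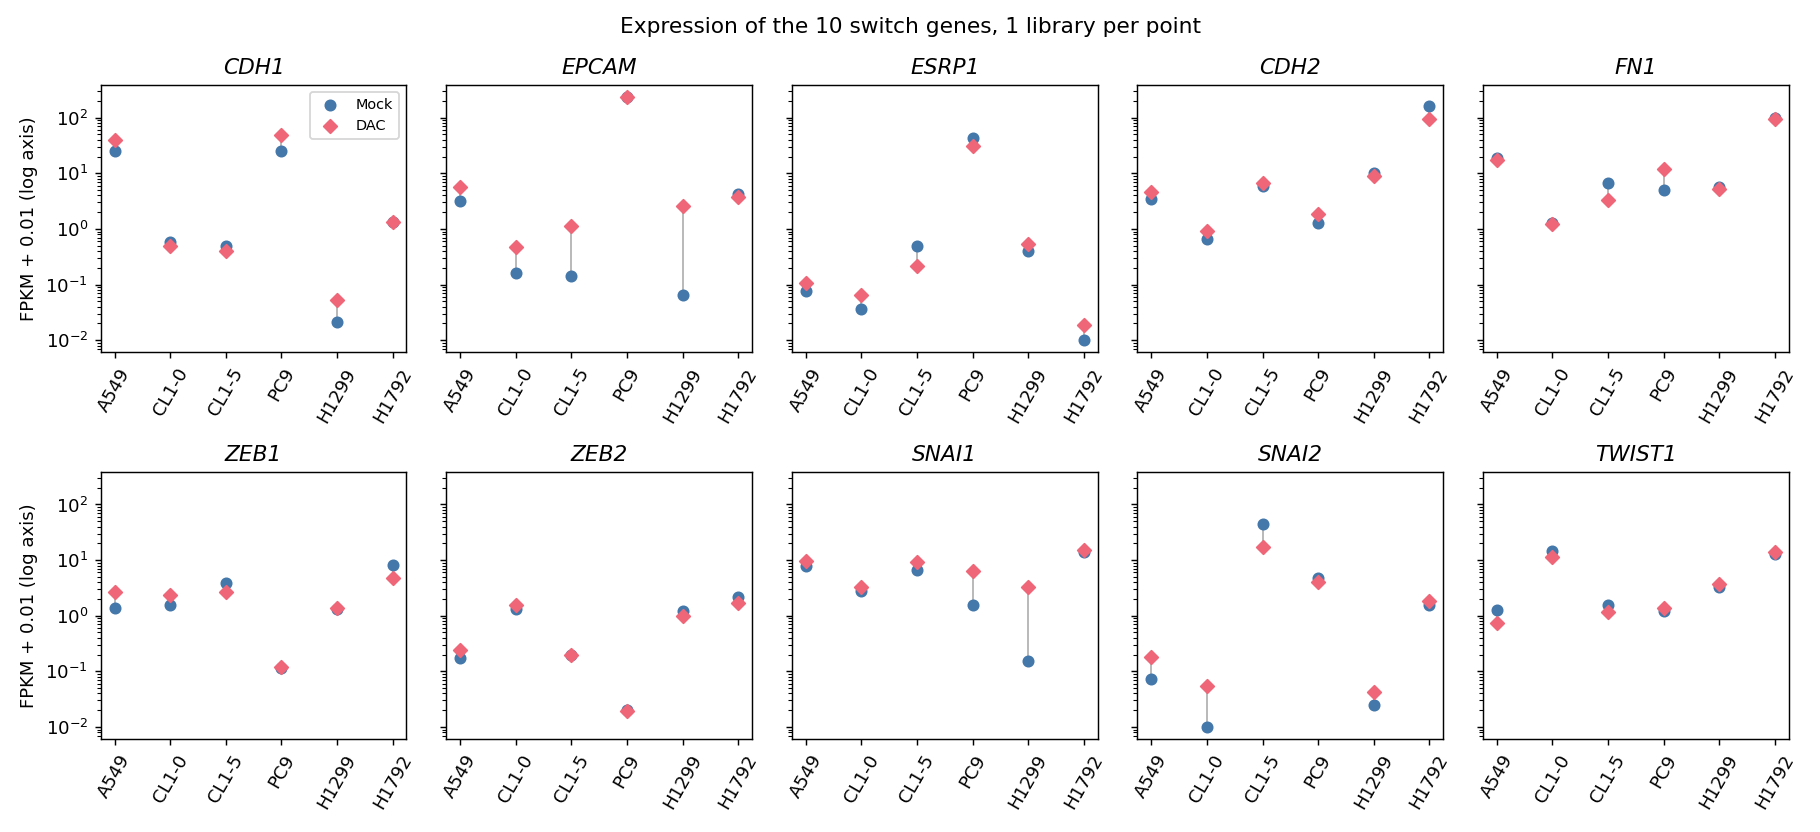
FPKM plus 0.01 on a log axis of the 10 genes in 6 lines, with 1 library per point, Mock as circles and DAC as diamonds. ESRP1 stands high in PC9 alone, at 43.7 FPKM in Mock against 0.484 or less elsewhere, and the long vertical lines are EPCAM and SNAI1 in H1299.

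CDH1 (ENSG00000039068, GRCh37 chr16:68771195-68869440) was at 25.5 FPKM in PC9 and 24.8 in A549, at 1.33 in H1792, at 0.562 in CL1-0, at 0.478 in CL1-5 and at 0.0113 in H1299. After DAC it was at 49.5 FPKM in PC9, 39.7 in A549, 1.30 in H1792, 0.487 in CL1-0, 0.387 in CL1-5 and 0.0429 in H1299. PC9 and A549, with the most CDH1, had more of it after DAC, by 1.95-fold (95% exact counting interval 1.87 to 2.03) and 1.60-fold (1.53 to 1.67). In H1792 the ratio was 0.978 (0.799 to 1.197), and the other 3 lines stayed under 1 FPKM. The value in H1299 rested on 4 reads in Mock and 14 after DAC. All counting intervals given here cover counting error in 1 library per treatment, not the spread between cultures or the scaling between libraries. The summed FPKM was 416327 in A549 Mock and 326951 after DAC, and 284496 and 319254 in H1792. Ratios within a line were not recomputed after rescaling to a common sum, so the direction of those near 1 may depend on the scaling.

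EPCAM (ENSG00000119888, chr2, canonical start 47596450), a cell surface adhesion molecule of simple epithelia, was at 235 FPKM in PC9, 4.32 in H1792, 3.19 in A549, 0.151 in CL1-0, 0.132 in CL1-5 and 0.0555 in H1299. After DAC it was at 234 FPKM in PC9, 3.77 in H1792, 5.74 in A549, 0.456 in CL1-0, 1.13 in CL1-5 and 2.57 in H1299. It was therefore higher in the 3 lines with the lowest Mock levels and in A549. The ratio was 46.3 in H1299 (17.7 to 172), 8.56 in CL1-5 (4.26 to 19.5), 3.01 in CL1-0 (1.41 to 7.14) and 1.80 in A549 (1.4999 to 2.17), against 0.993 in PC9 (0.969 to 1.02) and 0.873 in H1792 (0.729 to 1.05). Even so the highest DAC level in those 3 lines, 2.57 FPKM, stayed below the Mock level of A549. Their Mock levels rested on 8 reads in H1299 and on 9 each in CL1-5 and CL1-0. A low Mock level, the denominator, raises a ratio by itself.

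ESRP1 (ENSG00000104413, chr8:95653302-95719694), a splicing factor that maintains epithelial transcript isoforms, was at 43.7 FPKM in PC9, 0.484 in CL1-5, 0.387 in H1299, 0.0670 in A549, 0.0261 in CL1-0 and 0 in H1792. After DAC it was at 30.9 FPKM in PC9, 0.203 in CL1-5, 0.516 in H1299, 0.0973 in A549, 0.0554 in CL1-0 and 0.00855 in H1792. It was lower in PC9, to 0.707 of Mock (0.676 to 0.739), and in CL1-5, to 0.419 (0.2503 to 0.679). A549, with its high CDH1, had 7 ESRP1 reads in Mock and 12 after DAC.

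CDH2 (ENSG00000170558, chr18:25512843-25757910) was at 165 FPKM in H1792, 10.3 in H1299, 6.03 in CL1-5, 3.38 in A549, 1.25 in PC9 and 0.650 in CL1-0. In DAC libraries it was at 96.2 FPKM in H1792, 9.11 in H1299, 6.77 in CL1-5, 4.58 in A549, 1.84 in PC9 and 0.914 in CL1-0. The order of the lines was the same in both treatments. The largest ratio was 1.47 in PC9 (1.17 to 1.84) and the smallest 0.583 in H1792 (0.569 to 0.596).

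FN1 (ENSG00000115414, chr2:216225163-216300796) was at 97.7 FPKM in H1792, 18.7 in A549, 6.75 in CL1-5, 5.71 in H1299, 5.01 in PC9 and 1.25 in CL1-0. In DAC libraries it was at 93.1 FPKM in H1792, 17.4 in A549, 3.30 in CL1-5, 5.26 in H1299, 12.03 in PC9 and 1.22 in CL1-0. PC9 and CL1-5 went opposite ways, with ratios of 2.40 (2.28 to 2.54) and 0.488 (0.458 to 0.520), and the other 4 lines had ratios of 0.920 to 0.979. That difference between lines was not tested, with 1 library each.

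ZEB1 (ENSG00000148516, chr10:31607424-31818742) was at 8.20 FPKM in H1792, 3.83 in CL1-5, 1.58 in CL1-0, 1.36 in A549, 1.31 in H1299 and 0.106 in PC9. With DAC the values were 4.84 FPKM in H1792, 2.66 in CL1-5, 2.33 in CL1-0, 2.70 in A549, 1.34 in H1299 and 0.110 in PC9. It was higher in A549, by 1.98-fold (1.71 to 2.31), and in CL1-0, by 1.48-fold (1.29 to 1.70). It was lower in CL1-5, to 0.694 (0.623 to 0.772), and in H1792, to 0.590 (0.546 to 0.638), the pair of lines with the most ZEB1 in Mock. The Mock value enters both this order and the ratio, and a link between them was not tested.

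ZEB2 (ENSG00000169554, chr2:145121931-145278624), its paralog, was at 2.15 FPKM in H1792, 1.33 in CL1-0, 1.203 in H1299, 0.188 in CL1-5, 0.165 in A549 and 0.0101 in PC9. With DAC the values were 1.66, 1.52, 0.998, 0.188, 0.235 and 0.00911 FPKM in the same order of lines. H1792, CL1-0 and H1299 lay above the other 3 lines in both treatments. PC9 had 5 ZEB2 reads in each library.

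SNAI1 (ENSG00000124216, chr20:48599517-48605423) was at 13.9 FPKM in H1792, 7.72 in A549, 6.67 in CL1-5 and 2.76 in CL1-0, and was lowest in PC9 at 1.57 and H1299 at 0.145. After DAC it was at 14.9 FPKM in H1792, 9.71 in A549, 9.11 in CL1-5, 6.36 in PC9, 3.31 in CL1-0 and 3.21 in H1299. Its value was higher after DAC in all 6 lines, with intervals that include no change in CL1-0 (0.934 to 1.54) and H1792 (0.951 to 1.198). The lines with the least SNAI1 in Mock had the largest ratios, 22.1 in H1299 (10.5 to 56.0) and 4.05 in PC9 (3.01 to 5.53), and the others had ratios of 1.07 to 1.36. Mock is the denominator of these ratios, with 14 reads in H1299, so this order was not read as a trait of those lines.

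SNAI2 (ENSG00000019549, chr8:49830157-49834299) was at 44.3 FPKM in CL1-5, 4.68 in PC9, 1.55 in H1792, 0.0613 in A549, 0.0153 in H1299 and 0 in CL1-0. The DAC values were 17.2 FPKM in CL1-5, 4.07 in PC9, 1.86 in H1792, 0.173 in A549, 0.0332 in H1299 and 0.0444 in CL1-0. In CL1-5 it was at 0.389 of Mock (0.361 to 0.418), while the line with the next highest level, PC9, was at 0.870 (0.718 to 1.05). CL1-0 had 0 reads in Mock and 3 after DAC, so that no fold is given.

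TWIST1 (ENSG00000122691, chr7:19060614-19157259) was at 14.8 FPKM in CL1-0, 12.9 in H1792, 3.29 in H1299, 1.52 in CL1-5, 1.26 in A549 and 1.18 in PC9. The DAC values were 11.5 FPKM in CL1-0, 13.999 in H1792, 3.74 in H1299, 1.15 in CL1-5, 0.739 in A549 and 1.38 in PC9. Ratios lay between 0.585 in A549 (0.377 to 0.901) and 1.17 in PC9 (0.795 to 1.72). In Mock CL1-0 and its subline CL1-5 differed in TWIST1 (14.8 and 1.52 FPKM), ZEB2 (1.33 and 0.188) and SNAI2 (0 and 44.3). Both expressed ZEB1 (1.58 and 3.83 FPKM) and SNAI1 (2.76 and 6.67), with 1 library each.

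To ask whether DAC changed these genes across lines, log2(FPKM + 0.1) was compared by limma in the 5 lines the study compared (all but H1792), with the line as a block and p-values adjusted by Benjamini-Hochberg over 22603 genes. None of the 10 genes passed an adjusted p of 0.05. Among all genes tested 0.119% of genes (27) were called higher and 0% lower. EPCAM had the largest mean difference, 1.69 ± 0.54 (log2, SE, 5 lines, higher in 4 of 5), with an unadjusted p of 0.0154 and an adjusted p of 0.309 in limma. SNAI1 followed with 1.35 ± 0.51 (higher in 5 of 5), an unadjusted p of 0.0326 and an adjusted p of 0.365 in limma.

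These 2 genes were the members with an unadjusted limma p under 0.05, both higher, where 8.07% of all genes (1825) were higher and 4.4% (994) lower by that rule. The split of all genes turned to 1130 higher and 1668 lower with quantile normalization and was 2509 and 532 after rescaling to a common sum. Both values leaned on H1299: without that line the mean differences were 1.09 for EPCAM and 0.74 for SNAI1. They also moved with the pseudocount. EPCAM was at 0.74 and SNAI1 at 0.86 with a pseudocount of 1, and at 2.13 and 1.48 with 0.01. Over 15 alternative settings the adjusted limma p of EPCAM ran from 0.268 to 1.00 and that of SNAI1 from 0.314 to 1.00. The mean differences of the others were 0.31 ± 0.21 for CDH1 (higher in 3 of 5), 0.27 ± 0.15 for CDH2 (4 of 5), 0.20 ± 0.23 for ZEB1 (4 of 5), 0.05 ± 0.20 for ZEB2 (2 of 5), -0.0037 ± 0.29 for FN1 (1 of 5), -0.01 ± 0.32 for SNAI2 (3 of 5), -0.11 ± 0.25 for ESRP1 (3 of 5) and -0.21 ± 0.18 for TWIST1 (2 of 5). The median over all genes was 0.07. The direction of ESRP1, FN1, ZEB2 and SNAI2 turned under some settings, and 95% intervals were wide, reaching from -0.18 to 0.81 for CDH1 and from -0.34 to 0.74 for ZEB1.

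**Figure D2:**
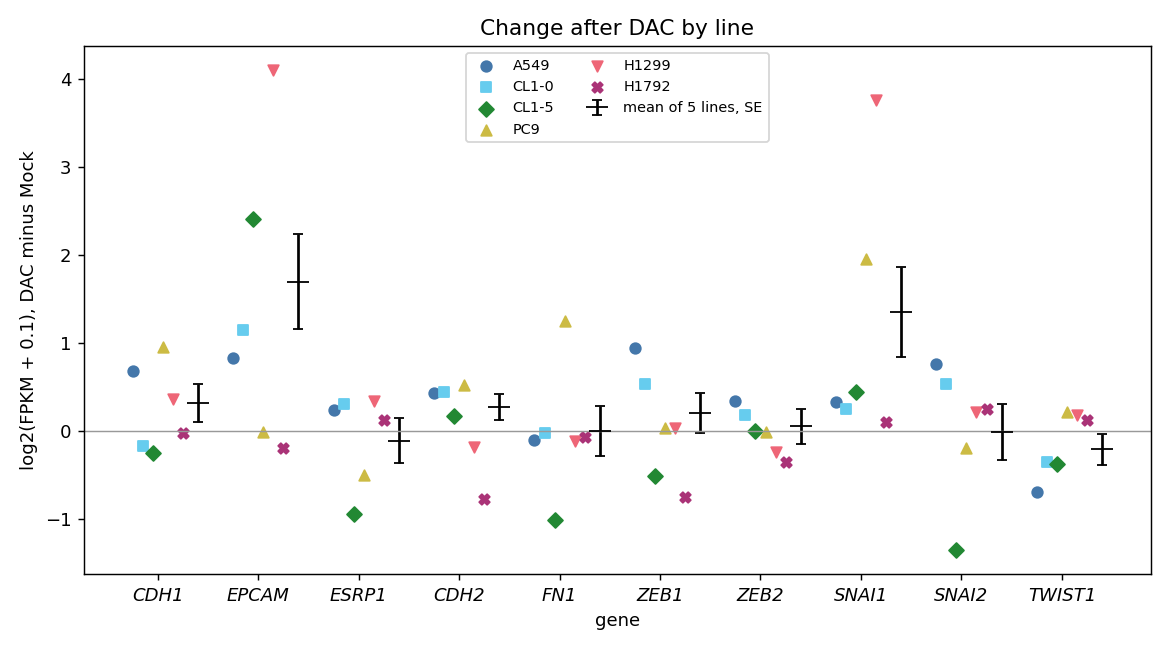
Difference in log2(FPKM + 0.1) between DAC and Mock for each gene, with 1 point per line and, in black, the mean of the 5 lines of the fit with its SE (H1792 is not in that mean). EPCAM and SNAI1 lie furthest above 0 on average, at 1.69 and 1.35, with H1299 at 4.10 and 3.75.

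Within single lines, 53 of the 60 pairs of gene and line had a mean of at least 0.1 FPKM. On the log2(FPKM + 0.1) scale 6 of these were at least 2-fold higher after DAC, EPCAM in CL1-0, CL1-5 and H1299, SNAI1 in PC9 and H1299, and FN1 in PC9. Another 2 were at least 2-fold lower, FN1 and SNAI2 in CL1-5. The shares, 11.3% and 3.77%, lay within what all genes showed in the same lines: 18.1% and 7.37% of genes were at least 2-fold higher and lower in A549, 12.9% and 7.46% in H1792, 12.9% and 4.71% in H1299, 12.3% and 3.99% in PC9, 9.32% and 2.79% in CL1-0 and 8.35% and 6.45% in CL1-5. No test was possible with 1 library per treatment.

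A score, the mean log2(FPKM + 0.1) of the 3 epithelial genes minus that of the 7 mesenchymal genes, summarised the state of each line. In Mock it was 5.91 in PC9, 0.48 in A549, -2.34 in CL1-0, -2.78 in H1299, -3.30 in CL1-5 and -4.00 in H1792. After DAC it was 5.52 in PC9, 0.78 in A549, -2.14 in CL1-0, -1.70 in H1299, -2.52 in CL1-5 and -3.82 in H1792. The order of PC9 and A549 at the top and H1792 at the bottom was kept, and no line crossed 0.

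The score was 0.40 ± 0.56 higher after DAC (SD, n = 5 lines), a mean difference smaller than the SD between lines. It was 0.22 without H1299 and 0.19 with a pseudocount of 1. H1299 moved by 1.08 and CL1-5 by 0.78 towards the epithelial side, and PC9 moved by -0.39. In H1299 both sides were higher, the epithelial mean from -2.30 to -0.70 and the mesenchymal mean from 0.49 to 1.01, with EPCAM and SNAI1 the largest terms. In CL1-5 the epithelial mean went from -1.23 to -0.82 and the mesenchymal mean from 2.07 to 1.69. When wider gene lists replaced the 10 genes, the mean difference over the 5 lines was 0.02. With these lists A549 went from 0.0035 to -0.45, across 0, and H1792 by -0.37.

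**Figure D3:**
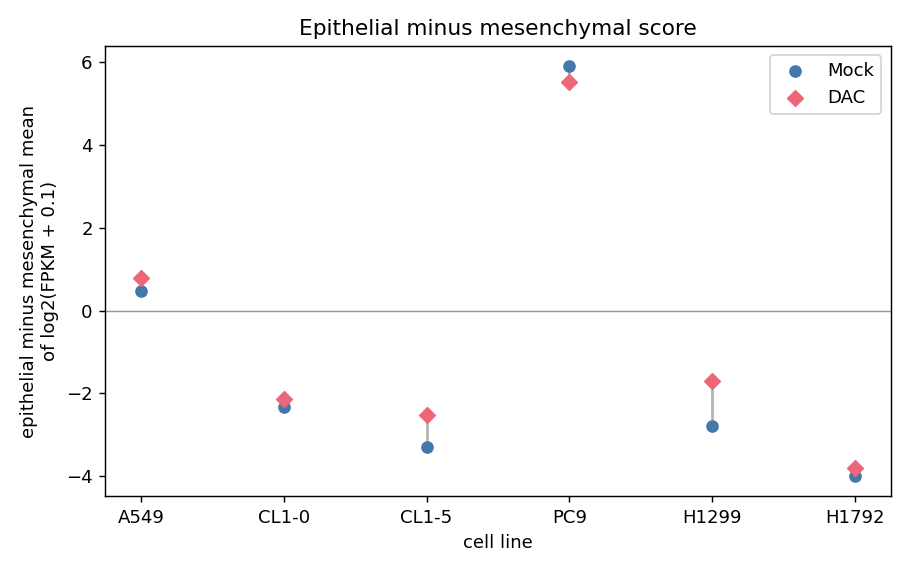
Epithelial minus mesenchymal score of 6 lines, the difference of mean log2(FPKM + 0.1), in Mock (circles) and after DAC (diamonds), 1 library per point. PC9 lies at 5.91 in Mock and the next line, A549, at 0.48.

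The wider program was read from lists of genes outside the 10. None of their genes passed the adjusted threshold. Of 26 genes of epithelial structure (tight junctions, desmosomes, keratins and surface proteases) 25 had a mean difference above 0, with a median of 0.55 on the log2 scale against 0.07 for all genes. Of 29 genes of mesenchymal structure (collagens, matrix proteins and stress fibre genes) 25 did, with a median of 0.54. With a pseudocount of 1 the epithelial median was 0.26 and the mesenchymal 0.20, against 0.03 for all genes. In CL1-5 the medians of the structural lists had opposite signs, 0.62 for the epithelial and -0.09 for the mesenchymal list. Of all genes, 58.8% had a mean difference above 0, a share that was 44.9% with quantile normalization and 71.1% after rescaling each library to a common sum.

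In the epithelial list of 26 genes, 8 were higher and 1 lower at an unadjusted limma p under 0.05. Of all genes tested, 8.07% were higher and 4.4% lower by that rule, and the lists were not tested against these shares. The claudin CLDN7 was at 71.8 and 83.2 FPKM in PC9 (Mock and DAC), 0.581 and 2.65 in A549, 0.388 and 0.886 in H1792, 0.119 and 1.69 in CL1-0, 0.0912 and 1.1999 in H1299 and 0.0888 and 2.26 in CL1-5. It was higher after DAC in every line, with a mean difference of 2.33 ± 0.45 and an adjusted limma p of 0.170. The protease inhibitor SPINT1 (1.78 ± 0.45, adjusted limma p 0.238) and the claudin CLDN4 (1.504 ± 0.35, adjusted limma p 0.210) came next. The lowest were the junction scaffold TJP3 (-0.52 ± 0.19), OCLN (0.17 ± 0.14), which encodes occludin, and CRB3 (0.19 ± 0.20), a cell polarity gene.

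In the mesenchymal structure list of 29 genes, 9 were higher and 0 lower at an unadjusted limma p under 0.05. The shares of all genes were 8.07% and 4.4%. The collagen gene COL6A3 was at 2.99 and 19.4 FPKM in CL1-5, 0.754 and 11.0 in H1792, 0.0196 and 1.93 in PC9, 0.0143 and 1.45 in A549, 0.00863 and 0.0258 in CL1-0 and 0.00534 and 0.333 in H1299. It too was higher in every line, by 2.55 ± 0.54 on average with an adjusted limma p of 0.189. The matrix protein gene SPARC (2.207 ± 0.75) was higher in 4 of the 5 lines and THY1 (1.81 ± 0.42), a surface glycoprotein of fibroblasts, in 5 of 5. In the lines of the fit THY1 was at 0.158 FPKM or less in Mock and at 1.01 or less after DAC. At the low end stood TNC, which encodes tenascin C (-0.21 ± 0.43), the receptor tyrosine kinase gene AXL (-0.16 ± 0.20) and VIM, which encodes the intermediate filament vimentin (-0.16 ± 0.28).

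Of 10 epithelial regulators 9 had a mean difference above 0, against 58.8% of all genes, with a median of 0.32. ELF3 (0.83 ± 0.41), ESRP2 (0.77 ± 0.27), a paralog of ESRP1, and OVOL2 (0.62 ± 0.22) were the highest. Of these, 2, ESRP2 and OVOL2, had an unadjusted limma p under 0.05, where 8.07% of all genes were higher. In the lines of the fit other than PC9, ESRP2 and OVOL2 were at 0.259 FPKM or less. FOXA1 (-0.37 ± 0.17), GRHL2 (0.0016 ± 0.20) and FOXA2 (0.04 ± 0.31) were the lowest, and GRHL2 was at 20.5 FPKM in PC9 in Mock and under 0.1 in the other 5 lines.

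TGF-beta signalling is a pathway known to drive the mesenchymal switch. Of 20 mesenchymal regulators and genes of this pathway 12 (60%) had a mean difference above 0, against 58.8% of all genes. Their median was 0.05, against 0.07 for all genes. At an unadjusted limma p under 0.05, 3 were higher and 2 lower, against 8.07% and 4.4% of all genes. The ligand gene TGFB2 (0.63 ± 0.20) and the receptor genes TGFBR3 (0.54 ± 0.16) and TGFBR1 (0.42 ± 0.16) were higher in 5 of 5 lines. TGFB1 (-0.40 ± 0.13) was lower in 5 of 5, from 41.6 to 26.2 FPKM in A549 and from 24.7 to 16.5 in PC9, and TWIST2 (-0.78 ± 0.31) and GSC (-0.56 ± 0.30) were lower in 3 or more. H1792, outside the fit, went the other way for TGFB1 (89.4 to 107 FPKM), TWIST2 (1.37 to 2.90), TGFB2 (17.04 to 11.1) and TGFBR1 (12.3 to 8.38). The adjusted limma p of these was 0.294 or more.

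**Figure D4:**
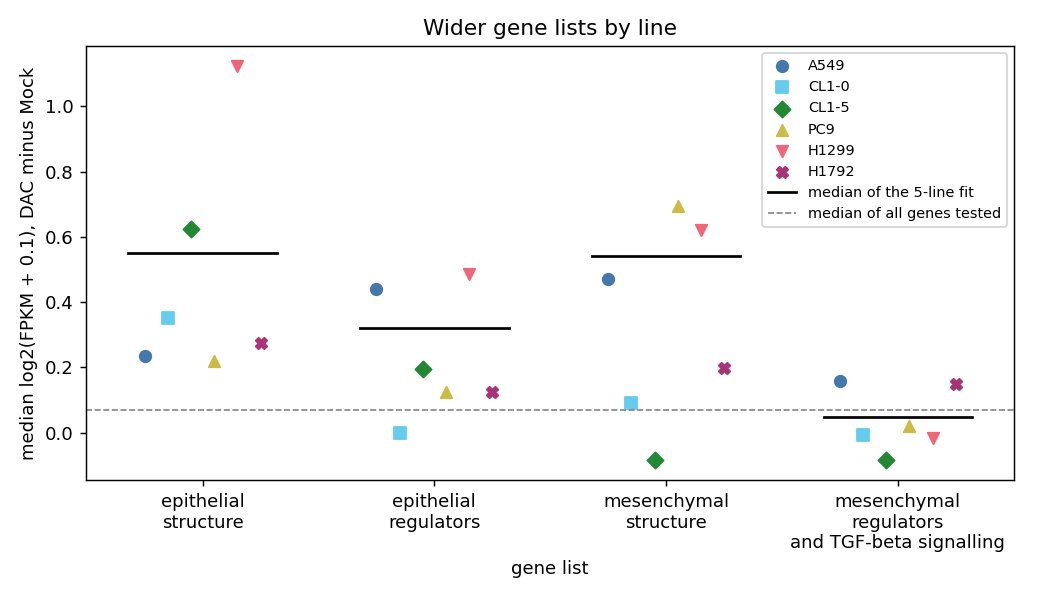
Median difference in log2(FPKM + 0.1) between DAC and Mock over the genes of each list, with 1 point per line, the median of the 5-line fit as a bar and the median of all genes as a dashed line at 0.07. The bars of the structural lists lie at 0.55 and 0.54 and that of the mesenchymal regulators at 0.05.

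Over the 12 libraries, which hold 6 pairs from the same line, the genes most like CDH1 among 13362 others with a mean of at least 1 FPKM were RASEF, INAVA, SPECC1, PDE8B and HR, with Pearson's r of 0.964 to 0.969 on the log2(FPKM + 0.1) scale. EPCAM ranked at 493 with an r of 0.77 and ESRP1 at 2962 with 0.46. The genes most like ZEB1 were JAZF1, CXorf38, ERO1B, GGCX and FAM156A, with r of 0.933 to 0.962. ESRP1 ranked at 13330 with an r of -0.90 to ZEB1, and CDH1 had -0.48. ESRP1 passed the minimum through the PC9 libraries alone, at 43.7 and 30.9 FPKM against 0.516 or less in the others, and its r without that line was not computed. ZEB2 lay under the minimum and was not ranked.

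Rows of the miR-200 loci carried few reads in this mRNA assay, which does not measure mature microRNAs. MIR200CHG, the host transcript of miR-200c and miR-141, was at 7.01 FPKM in PC9 in Mock (51 reads) and 4.20 after DAC (34 reads). It had 0 reads in the other libraries except for 1 read in CL1-0 after DAC. PC9 was also the line with the least ZEB1 and ZEB2.

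In the ATAC data the labels of CL1-5 and PC9 were at odds with the names inside the files, which exchange them. Of 94 genes with at least 10 FPKM in PC9 and under 0.1 in CL1-5 in Mock, 88 carried a peak at the promoter in the Mock sample with the label CL1-5 and 47 in the one with the label PC9. Of 27 genes with the reverse pattern, these numbers were 16 and 21. The libraries are therefore called by their labels only, and each statement on them would hold for the other line if the labels are exchanged. Peaks were called by the authors in each library, from 45354 in H1299 Mock to 97584 in the library labelled CL1-5 after DAC, and every DAC library listed more peaks than its Mock library.

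A promoter peak here lies within 3000 bp of the start of the gene for which the authors list it. By that rule 9 of the 10 genes had one in A549 Mock and 10 after DAC. For H1299 the numbers were 5 and 7. Under the label CL1-5 they were 10 and 9, and under the label PC9 they were 9 and 10. Of 19148 genes listed for any peak, 72.0% had one in A549 Mock and 75.6% after DAC. These shares were 67.5% and 70.9% in H1299, 75.2% and 76.5% under the label CL1-5, and 73.3% and 76.9% under the label PC9. A peak is listed for 1 gene only, and this decided the values of ZEB1 and ESRP1. The ZEB1 start lay under a peak in all 8 libraries, but in A549 Mock and in both H1299 libraries it was listed for ZEB1-AS1, the divergent antisense gene. In A549 the Mock peak at chr10:31607296-31609223 had a fold enrichment of 5.07 and the DAC peak at chr10:31607230-31609121 of 4.92, so that a peak was listed over this start in both treatments. The ESRP1 start in the library labelled CL1-5 after DAC likewise lay under a peak listed for a neighbouring gene.

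By position, whatever the gene named, 3 genes went from no peak within 3000 bp of the start to 1 or more after DAC. The reverse was seen at 0 genes. ESRP1 and SNAI2 had none in H1299 Mock and 1 or more after DAC, 2 of the 4 genes without one, where 20.5% of all genes without a Mock peak had one after DAC. For ESRP1 the strongest peak had a fold enrichment of 2.65 and for SNAI2 of 2.97, both with a -log10 q under 2. EPCAM had none in the Mock library labelled PC9 and one of 3.14-fold enrichment after DAC, where the share of all genes was 25.9%. Its -log10 q was under 2 as well. This count leaves out peaks that came or went at a gene with another peak in the window. For ZEB2 a further peak was listed near the canonical start after DAC, in H1299 (-log10 q 2.87) and under the label PC9 (2.76). ESRP1 in A549 had 2 peaks in Mock and 1 after DAC. With only the listed peaks of a -log10 q of at least 2, the numbers of genes with a promoter peak were 5 in both H1299 libraries, and 9 in Mock and 8 after DAC under the label PC9. In A549 and under the label CL1-5 all 10 genes had a peak in Mock, so that none could be gained there (25.2% and 23.6% of all genes without one gained one). Of all genes with a Mock peak, 2.87% in A549, 3.04% in H1299, 4.39% under the label CL1-5 and 2.58% under the label PC9 had none after DAC.

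CDH1 had no peak within 3000 bp of its start in either H1299 library, in which it was at 0.0113 and 0.0429 FPKM. In the libraries labelled CL1-5 and PC9 a peak covered its start, with fold enrichments of 5.15 and 4.50 in Mock and 4.37 and 3.78 after DAC. In A549, where CDH1 was at 24.8 and 39.7 FPKM, its peaks lay 773 to 2937 bp downstream and the start was uncovered. EPCAM had no peak within 3000 bp in H1299 in either treatment, although its FPKM went from 0.0555 to 2.57.

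The EPCAM peak had its highest fold enrichment in the libraries labelled CL1-5, at 7.19-fold in Mock and 6.22-fold after DAC. EPCAM was at 0.132 FPKM in Mock in CL1-5 and at 235 in PC9. The SNAI2 peak was at 8.31-fold and 7.07-fold in the libraries labelled PC9 and at 7.05-fold and 4.88-fold in those labelled CL1-5. In A549, where SNAI2 was at 0.0613 and 0.173 FPKM, it was at 7.74-fold in Mock and 9.17-fold after DAC. SNAI1, TWIST1, FN1, CDH2 and ZEB2 had a promoter peak in all 8 libraries, at 3.16-fold to 7.80-fold enrichment. For ZEB2 the strongest peak lay inside the gene, as at chr2:145274076-145275286 in A549 Mock. A peak covered the canonical ZEB2 start, 145277686, in H1299 after DAC only. Under the label PC9 a peak close to this start, at chr2:145277696-145277911, was listed for ZEB2 after DAC and not in Mock. SNAI1 in H1299 was at 5.52-fold in Mock and 3.56-fold after DAC, while its FPKM went from 0.145 to 3.21. Fold enrichments are not scaled between libraries, and their differences were not tested.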

How the data were processed

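FPKM values were made by the authors with DESeq2 1.24.0 from reads counted on hg19 (GRCh37) genes. The submitters' processing notes name TopHat2 2.1.1, whereas the study's methods name RSEM with bowtie2. Peaks were deposited per library, with fold enrichment, -log10 p and -log10 q made by the authors with MACS2 2.2.5 and gene names from ChIPseeker 1.20.0, after alignment with BWA 0.7.17-r1188. The deposited columns of fold changes and p-values, which are the authors' own comparison, were not used. Whole reads were recovered from the FPKM values and the authors' baseMean signal, a mean of size-factor-scaled reads (100% of values within 0.05 of a whole read) and used for counting intervals and for voom. limma 3.58.1 in R 4.3.3 was run on log2(FPKM + 0.1), with cell line as a block and the prior variance following intensity. Genes tested had a mean of at least 0.1 FPKM over 10 libraries of 5 lines. The fit was checked on simulated reads, with planted changes alike in every line and less spread between lines than here. That check does not show how well the fit finds changes that differ between lines. The pairing comes from the cell line: Mock and DAC libraries of the same line correlated at 0.731 to 0.900 in their deviations from the group mean, and those of different lines at 0.115 at most. p-values measure the spread between lines. H1792 is shown beside the fit. Named genes were the 10 members, the 3 highest and 3 lowest of each wider list, and the 5 most like CDH1 and ZEB1. The miR-200 family was added after values had been seen. The members and lists were chosen with earlier results of these data known.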

Additional observations from a re-analysis of the deposited data

Results flagged for a closer look

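In 32 sets of 6 values (each gene in Mock, after DAC and as a difference, and the score), 2 held a line far from the others, a gap above 0.625 of the range, where chance flags about 1 in 20. Both were ESRP1 in PC9, at 5.45 on the log2(FPKM + 0.1) scale in Mock, with the next line at -0.77, and at 4.95 after DAC, with the next line at -0.70.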

How the results depend on the processing

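No setting called any of the 10 genes. The lowest adjusted limma p of any of them was 0.150, for CDH1 with voom on recovered reads. Its mean log2 difference there was 0.85, against 0.31 in the main fit. The reads of H1299 were not divided by 2 for voom. The number of genes called higher in the whole table was 27 and moved to 53 with H1792 added, 10 with no replicate block, 0 with a pseudocount of 1, 2 with no filter, 17 with quantile normalization, 6 with no trend and 199 with voom on recovered reads, and lay between 0 (without A549, and without CL1-5) and 22 when 1 line was left out. Genes called lower numbered 0, or 0 to 1 when 1 line was left out, the 1 being without H1299. With a pseudocount of 1, where 0 genes were called in limma, 1411 were higher and 982 lower at an unadjusted p under 0.05, and these numbers were 1206.0 and 595.0 without A549 and 1664.0 and 1007.0 without CL1-5. ZEB2 was not tested at a mean of at least 1 FPKM. The median log2 difference over the whole table, 0.07, became 0.17 after rescaling to a common sum and -0.04 with quantile normalization. Mean log2 differences near 0 turned sign. That of ESRP1 was 0.0051 with a pseudocount of 0.01, and -0.23 to 0.10 when 1 line was left out. That of FN1 was 0.0089 with a pseudocount of 1, 0.12 after rescaling and 0.12 with voom, and -0.32 to 0.25 when 1 line was left out. That of ZEB2 was -0.016 with H1792 added and -0.20 with quantile normalization, and -0.021 to 0.13 when 1 line was left out. That of SNAI2 was 0.031 with H1792 added, 0.60 with a pseudocount of 0.01 and 0.039 after rescaling, and -0.20 to 0.33 when 1 line was left out. The median of the epithelial regulators was 0.54 with voom, and that of the mesenchymal regulators was -0.10 with quantile normalization and 0.15 with voom. The cause was not tested for any of these. The scores in Mock (none of which changed sign) and the mean change of the score moved by less than the SD between lines, 3.82 and 0.56. These limits were wide. The mean change, 0.40, became 0.02 with the wider lists and -0.04 with H1792 added to those. It was 0.22 to 0.59 when 1 line was left out, the lowest without H1299. The numbers of promoter peaks stayed within 1.5 times under every setting run, a limit that numbers of 9 or 10 out of 10 could not pass upwards. The settings included exchanged ATAC labels, chosen after seeing the data. With no replicate block no other call changed. Low reads limit CDH1, EPCAM, ESRP1, SNAI2 and ZEB2 in lines under 0.1 FPKM.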
